A study of Mus musculus with 6 samples.

Results

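The cytosolic ribosomal protein genes encode the protein parts of the ribosome that works in the cytoplasm. They were taken by name from the gene table: every name that begins with Rpl or Rps and a digit, together with Rplp0, Rplp1, Rplp2 and Rpsa, without the S6 kinases whose names begin with Rps6k. The rule found 88 genes among 15639 entries of the table. Of these, 46 encode proteins of the large 60S subunit and 31 encode proteins of the small 40S subunit. A further 5 are paralogs (Rpl7l1, Rpl22l1, Rpl36al, Rps27l and Rps27rt), 5 carry a pseudogene name (Rpl10-ps3, Rpl36a-ps1, Rpl9-ps6, Rps12-ps3 and Rpl27-ps3), and Rps19bp1 shares only the name, since it encodes a binding partner of Rps19. Fau, which encodes a 40S protein fused to a ubiquitin-like protein, falls outside the name rule and is given apart.

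A ribosome joins a small subunit, which reads the messenger RNA, to a large subunit, which forms the peptide bond. Each protein is built into the particle in a fixed proportion, and surplus protein is degraded. Most mRNAs of this class start with a C followed by a run of pyrimidines, the 5′ terminal oligopyrimidine (TOP) tract, through which Larp1 and the kinase mTOR control their translation, while their transcription is largely constitutive. In neurons these mRNAs are found in cell bodies and also in dendrites and axons.

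The study measured total RNA from the hippocampus of mice aged 6 months, with 3 libraries under the label wild type (WT) and 3 under APP/PS1. APP/PS1 mice carry a transgene for amyloid precursor protein with the Swedish mutation (APP695swe) and one for presenilin 1 without exon 9 (PS1-dE9). The sources used here do not give the promoters of the transgenes, the strain or the sex. Nor do they tie each replicate to an animal of its own, so a p-value here reflects the spread between libraries, which may be technical.

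In 1 library per label, App, the mouse gene behind the transgene, did not match the label. The library labelled WT replicate 3 had a high App of 145.6 FPKM (68.5 and 69.8 FPKM in the other WT replicates), and the library labelled APP/PS1 replicate 2 a low one of 71.0 FPKM (153.1 and 166.2 FPKM in the other APP/PS1 replicates). Prnp, the prion protein gene, divided the libraries likewise. Results are therefore also given for the 4 libraries without this pair. Below, WT and APP/PS1 stand for the labels, and 3 values in a row are replicates 1, 2 and 3. FPKM, fragments scaled to transcript length and library size, added up to 182329 to 185191 in a library, and the depth behind it is unknown. Defining markers of hippocampal neurons (8 of 8 in the table) summed to 649 to 698 FPKM under WT and 648 to 677 FPKM under APP/PS1, and none was at 0. Choroid plexus markers (8 of 8) summed to 863 to 1210 against 1121 to 1397 FPKM, myelin markers (8 of 8) to 329 to 422 against 397 to 480 FPKM, and red cell markers (5 of 7) to 334 to 481 against 357 to 708 FPKM. The part of these cell types in the results below was not tested. In bulk tissue, fewer cells of a type and less RNA per cell cannot be told apart.

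The start regions were searched for the pyrimidine run the class is known for. It began exactly at an annotated start in 13 of 57 subunit genes and within 5 bases of one in 27. RefSeq start regions (GRCm38.p6, 250 bases before to 50 bases after each annotated start) were matched by symbol to 63 of the 88 genes, 57 of them 60S or 40S genes. The windows printed run from 20 bases before the start to 20 bases from it, 5′ to 3′ on the strand of the gene. Rpl38, Rps6 and Rpl28 are shown because their pyrimidine run lies at or across the annotated start, and Rps18 and Rps3a1 because they had the highest fold changes, the former with such a run and the latter with none near this start. Capitals mark a C followed by at least 4 C or T that begins within 5 bases of the start. The windows are Rpl38 at chr11:114668560-114668599 (plus strand), Rps6 at chr4:86857348-86857387 (minus strand), Rpl28 at chr7:4792945-4792984 (plus strand), Rps18 at chr17:33955646-33955685 (minus strand) and Rps3a1 at chr3:86142649-86142688 (minus strand).
Rpl38: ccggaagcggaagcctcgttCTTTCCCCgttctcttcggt
Rps6: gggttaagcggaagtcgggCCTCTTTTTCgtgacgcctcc
Rpl28: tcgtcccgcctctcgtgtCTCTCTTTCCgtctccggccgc
Rps18: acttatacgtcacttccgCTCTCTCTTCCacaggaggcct
Rps3a1: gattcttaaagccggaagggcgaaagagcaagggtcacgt

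Of the 57 subunit genes with a start region, 13 (22.8%) had a pyrimidine run that began exactly at an annotated start, against 3.01% of all 27025 genes with a start region. A run that began within 5 bases of the start, on the strand of the gene, was found in 27 (47.4%) against 21.2% of all genes. CTTTCC, which is itself such a run, lay within 25 bases of the start on the strand of the gene in 10 (17.5%) against 2.92% of all genes. CCGGAAG, the core recognised by ETS transcription factors, lay on either strand of the 300 bases in 24 (42.1%) against 9.93%. TATAAA, a box of many tissue-specific promoters, was found on the strand of the gene in the 60 bases before the start in 0 of 57 against 3.44%. A match is a description of letters in the window, and a start that is annotated some bases away from the one used in the hippocampus would move or hide a run.

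Across the libraries, most subunit genes were abundant, and the 60S genes were steadier than the 40S genes. The 77 genes for 60S and 40S proteins had a median of 35.8 FPKM over the 6 libraries, and all 13690 genes tested had a median of 5.47 FPKM. Of the 88 genes, 26 were among the 500 highest genes of the table and 44 among the 1000 highest. FPKM is a level per transcript length, and the plot of levels by subunit sets the genes beside each other on that scale. Short mRNAs and reads shared with pseudogene copies can affect FPKM, so differences in level between genes are a description. The 5 highest were Rplp1 with a mean of 258.2 FPKM, Rps15 with 194.3, Rpl17 with 168.8, Rpl8 with 147.3 and Rps29 with 140.9 FPKM. Rplp1 encodes an acidic protein of the stalk that recruits translation factors, Rps15 and Rps29 encode 40S proteins, and Rpl17 and Rpl8 encode 60S proteins. From Rplp1 to Rpl8 each gene lay above the next in all 6 libraries with no overlap, Rpl17 at 164 to 182 and Rpl8 at 142 to 150 FPKM. Rpl8 and Rps29 (133 to 152 FPKM) overlapped. The 5 lowest were Rpl9-ps6 with 0.514 FPKM, Rps27rt with 1.01, Rpl36a-ps1 with 1.80, Rpl27-ps3 with 3.10 and Rps12-ps3 with 4.95 FPKM, all of them pseudogene names apart from Rps27rt, a retrotransposed relative of Rps27. The lowest subunit genes were Rpl18 with 7.46 FPKM and Rps18 with 7.99 FPKM, so the means of the subunit genes ran from 7.46 to 258.2 FPKM.

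**Figure D1:**
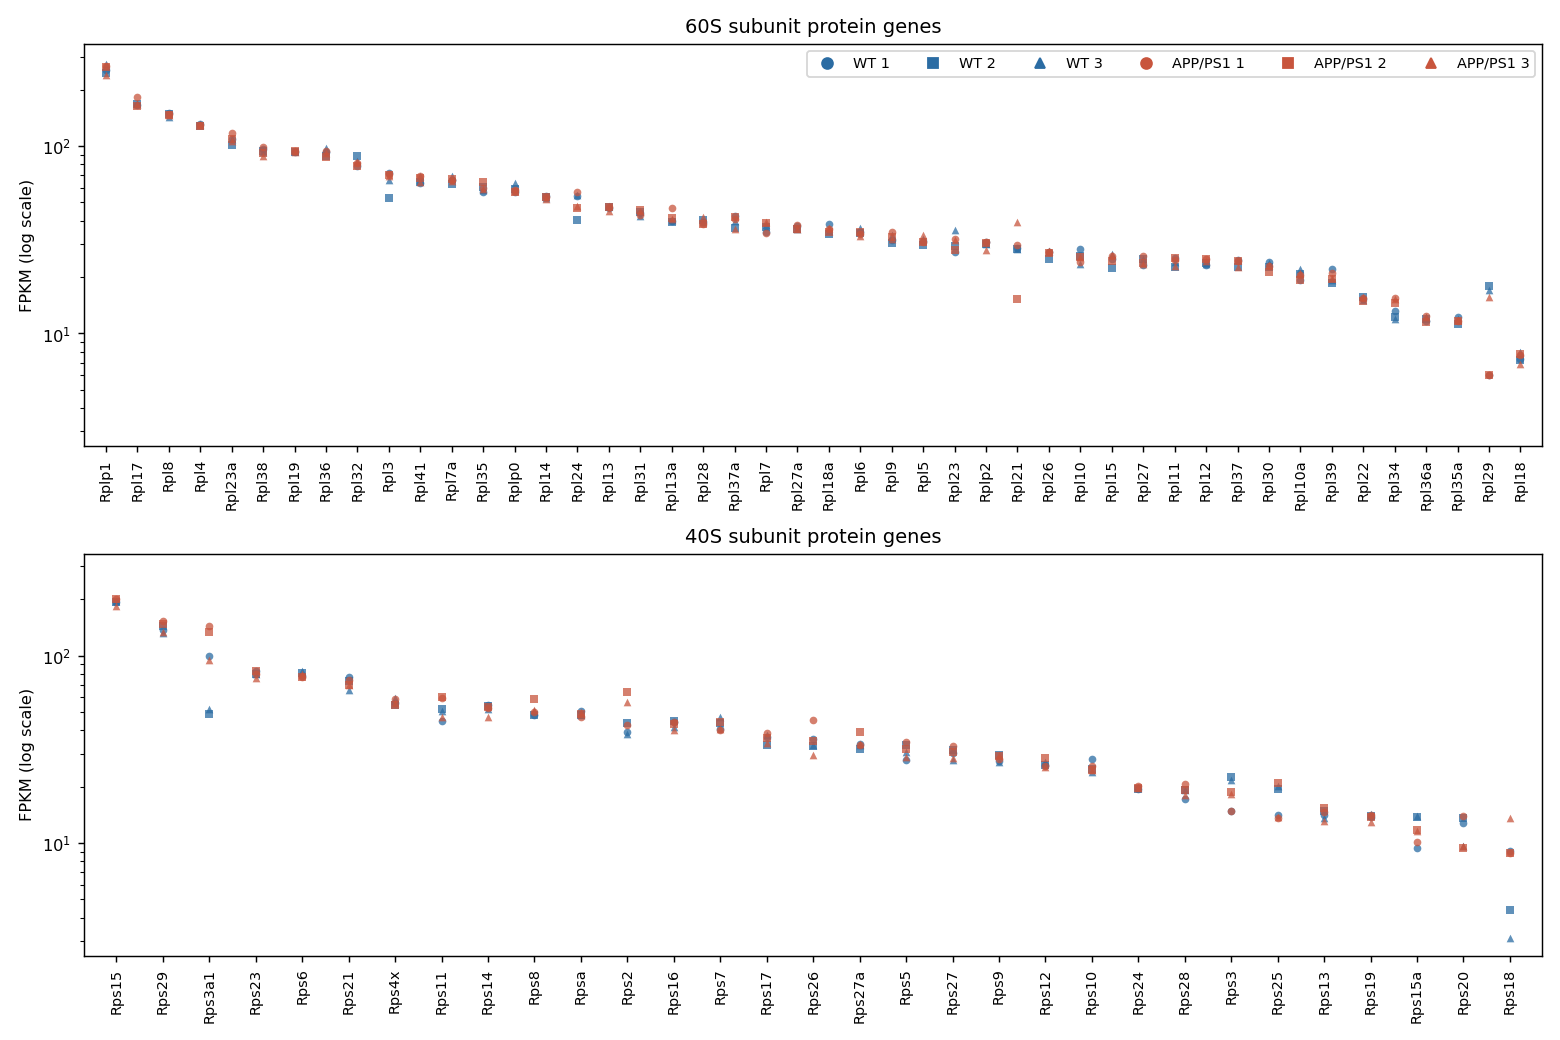
FPKM on a log axis for the 46 genes for 60S proteins (upper panel) and the 31 genes for 40S proteins (lower panel), ordered by mean, with a point for each of the 3 WT-labelled (blue) and 3 APP/PS1-labelled (red) libraries. For most genes the 6 points lie on each other, while Rpl29, Rpl21, Rps3a1, Rps2, Rps25 and Rps18 are spread.

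The coefficient of variation (CV, the SD over the 6 libraries divided by their mean) had a median of 4.68% over the 77 subunit genes, with 41 under 5% and 6 over 20%. The 46 genes for 60S proteins had a median of 4.21%, with 67.4% of them under 5%. The 31 genes for 40S proteins had a median of 6.00%, with 32.3% under 5% and 12.9% over 20%. Among genes at 10 FPKM or more, the 78 genes of the family in that range had a median CV of 4.69% and 52.6% of them were under 5%. The 4036 other genes had a median of 6.10%, with 34.7% under 5% and 5.13% over 20%. By these values the 40S genes were no steadier than the other genes. Rpl19, a 60S protein gene, had a CV of 0.878%, with 92.7, 92.6 and 94.2 FPKM under WT and 93.6, 94.6 and 93.1 FPKM under APP/PS1. Rpl4, another 60S gene, had a CV of 1.04% at 129 FPKM, and Rps24, a 40S gene, 1.44% at 19.7 FPKM. The median CV of the family fell with level up to 200 FPKM. In the range from 20 to 50 FPKM the 36 family members had a median CV of 4.77%, and in the range from 50 to 100 FPKM the 19 members had 4.21%. From 100 to 200 FPKM the 6 members had 3.39%. Other genes in the same ranges had medians of 5.69%, 5.56% and 4.75%. From 10 to 20 FPKM the order was the other way round, at 7.55% for 16 members and 6.45% for other genes.

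**Figure D2:**
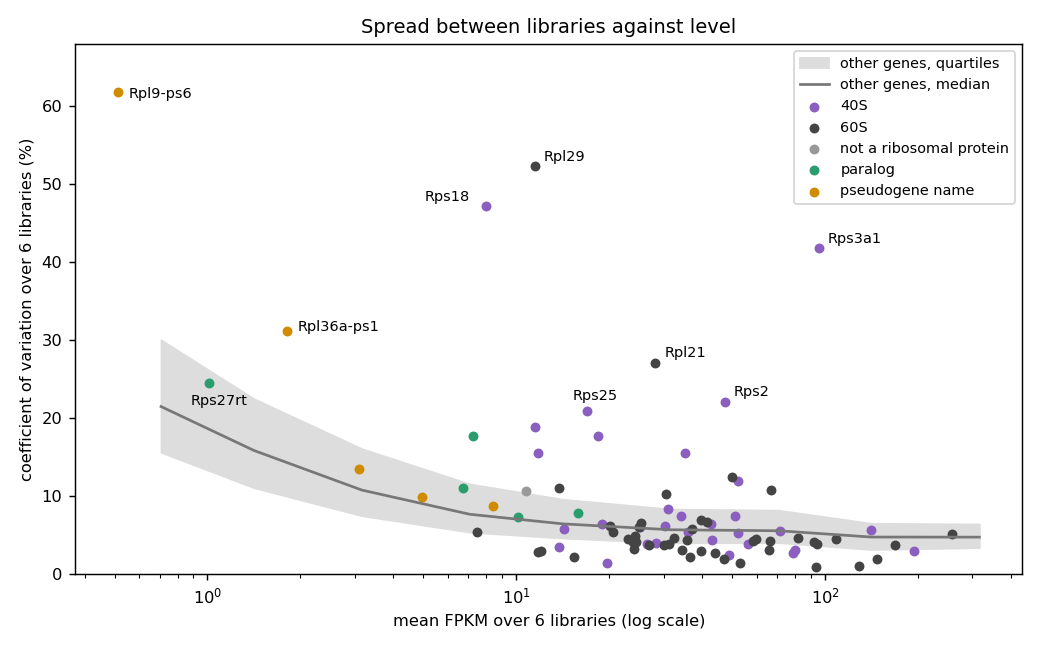
Coefficient of variation over 6 libraries (percent) against mean FPKM (log axis) for each of the 88 genes, coloured by class. The grey line and band give the median and quartiles of all other genes in bins of level. The named subunit genes lie far above the band, while the named paralog Rps27rt lies close to its upper edge.

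Between the labels, no gene of the family passed the test and the differences centred near 0. Of 87 genes tested, 0 passed an adjusted p of 0.05 by limma, against 0.0219% of all genes (3 of 13690), and the smallest adjusted p in the family was 0.484, for Rpl34. The log2 fold change, APP/PS1 over WT on the log2(FPKM + 1) scale, had a median of 0.0044 over the family, with 47 genes above 0 and 40 below, and a median of -0.00093 over all genes tested. It lay within 0.1 of 0 in 69 of the 87 (79.3%) and in 66.5% of all genes tested. The 95% interval of the difference stayed within 0.5 of 0 for 77 of the 87, and for 11953 of all 13690 genes tested, a similar share. For these a larger difference in either direction lay outside the interval. Over the 46 genes for 60S proteins the median was 0.00074, with 24 above and 22 below 0, and over the 31 genes for 40S proteins it was 0.0077, with 17 above and 14 below. In the 4 libraries without WT replicate 3 and APP/PS1 replicate 2, 0 of 86 passed and the median was 0.020.

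Without adjustment, 6 of the 87 had a p under 0.05 with a higher value under APP/PS1 (6.90%), where 2.85% of all genes did. None was lower at that level, where 3.83% of all genes were. Libraries of the labels did not overlap for 5 of the 87 with the higher values under APP/PS1 (5.75%, against 5.37% of all genes) and for 0 with the lower values (against 6.52%). The 6 were Rpl34, Rps3a1, Rps2, Rps18 and the pseudogene names Rpl36a-ps1 and Rpl10-ps3. This count changed with single libraries. Without WT replicate 1, 5 of 86 were higher (5.81%, against 2.65% of all genes) and 2 were lower. Without WT replicate 2, 3 of 87 were higher (3.45% against 2.20%) and 1 was lower. Without APP/PS1 replicate 1, 3 of 87 were higher (3.45% against 1.53%), and without APP/PS1 replicate 3, 5 of 86 (5.81% against 2.41%). The family's share was below that of all genes when other libraries were left out. It was 3 of 86 without WT replicate 3 (3.49% against 4.49%) and 2 of 87 without APP/PS1 replicate 2 (2.30% against 2.55%). In the 4 libraries it was 3 of 86 (3.49% against 4.22%).

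**Figure D3:**
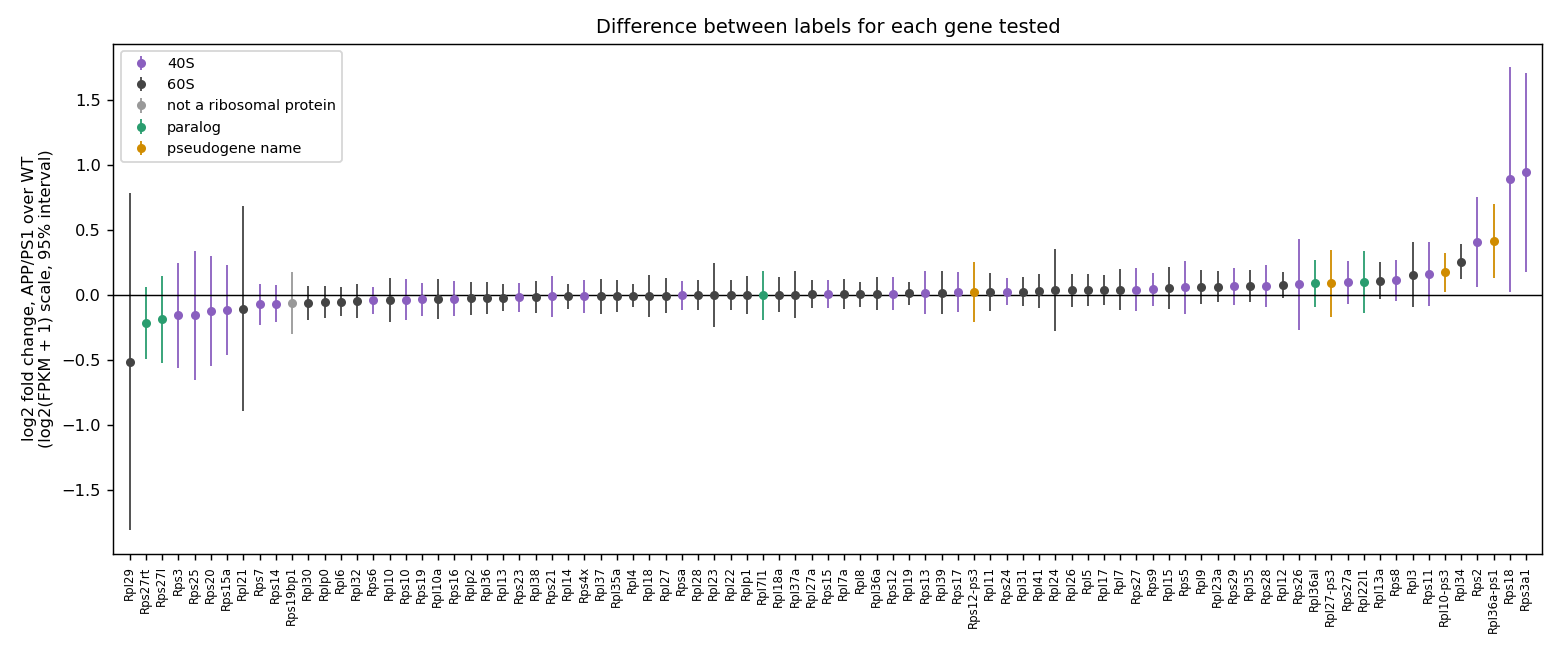
Log2 fold change, APP/PS1 over WT on the log2(FPKM + 1) scale, with its 95% interval from limma for each of the 87 genes tested, ordered by value and coloured by class (3 libraries per label). Most intervals are short and cross 0, while those of Rps3a1, Rps18, Rps2, Rpl34, Rpl36a-ps1 and Rpl10-ps3 lie above 0 before adjustment and those of Rpl29 and Rpl21 are wide.

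Among the 60S genes, those of the stalk overlapped between labels. The stalk is built from Rplp0, its base, and from Rplp1 and Rplp2, which together recruit and activate the elongation factors. Rplp0 was at 56.9, 59.0 and 63.2 FPKM under WT and at 58.2, 56.5 and 57.3 FPKM under APP/PS1. Rplp1 was at 254.7, 246.3 and 274.4 against 268.6, 265.3 and 240.1 FPKM. The labels overlapped for both, and the log2 fold changes were -0.056 (SE 0.052) for Rplp0 and -0.0031 (SE 0.062) for Rplp1. Rplp2, at 29.9 to 30.9 against 27.9 to 30.8 FPKM, had a log2 fold change of -0.028 (SE 0.054). Rplp1 thus stood at several times the level of Rplp2, its partner in the stalk dimers, in every library.

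Rpl5 and Rpl11, which form a particle with the 5S ribosomal RNA and bind the p53 regulator Mdm2 when ribosome assembly fails, overlapped between labels as well. Rpl5 was at 31.3, 29.7 and 31.7 FPKM under WT and at 30.9, 30.9 and 33.4 FPKM under APP/PS1. Rpl11 was at 25.3, 22.6 and 24.0 against 24.7, 25.4 and 23.0 FPKM. The log2 fold changes were 0.037 (SE 0.054) for Rpl5 and 0.022 (SE 0.062) for Rpl11. Rpl23, which can bind Mdm2 as well, ranged more widely, from 27.1 to 35.7 FPKM under WT and from 27.9 to 31.8 FPKM under APP/PS1. Rpl10, a protein that joins the 60S subunit late in its assembly, was at 28.1, 26.0 and 23.4 against 24.0, 25.7 and 25.4 FPKM, with the labels overlapping and a log2 fold change of -0.041 (SE 0.073).

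Rpl34, which encodes a 60S protein, had the smallest p of the family. Its level was 13.2, 12.2 and 11.99 FPKM under WT and 15.5, 14.5 and 15.2 FPKM under APP/PS1. Every library labelled APP/PS1 was above every library labelled WT, with means of 12.5 ± 0.647 and 15.1 ± 0.556 FPKM (SD, n = 3 each). The log2 fold change was 0.25 (SE 0.058, adjusted p = 0.484 by limma), and it was 0.26 in the 4 libraries (adjusted p = 0.450). Rpl13a, which encodes a 60S protein that also silences inflammatory mRNAs when released from the ribosome, was at 39.6, 39.1 and 40.5 against 46.7, 41.4 and 40.8 FPKM. Rpl12, which lies at the base of the stalk, was at 23.1, 23.8 and 23.6 against 24.9, 24.95 and 24.4 FPKM. Neither overlapped between labels, with log2 fold changes of 0.11 (SE 0.061, adjusted p = 0.827 by limma) and 0.075 (SE 0.044, adjusted p = 0.832). The value of Rpl13a was 0.048 without APP/PS1 replicate 1, its highest library, and 0.15 in the 4 libraries.

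The most variable subunit gene was Rpl29, and its libraries fell at separate levels that the labels did not follow. Rpl29, a small basic 60S protein, was at 6.03, 17.96 and 17.04 FPKM under WT and at 6.04, 6.02 and 15.7 FPKM under APP/PS1. WT replicate 1 and APP/PS1 replicates 1 and 2 were at nearly the same low value, the other 3 libraries were all at 15.7 FPKM or more, and the labels overlapped. The log2 fold change was -0.52 (SE 0.52, adjusted p = 0.917 by limma), and -0.091 in the 4 libraries. It ran from -0.98 without WT replicate 1 to -0.26 without WT replicate 2. Rpl21, another 60S gene, was at 28.6, 28.0 and 28.3 FPKM under WT and at 29.5, 15.3 and 39.3 FPKM under APP/PS1. Its 3 WT-labelled libraries were almost equal, while APP/PS1 replicate 2 was the lowest and APP/PS1 replicate 3 the highest of the 6. The log2 fold change of -0.11 (SE 0.32) turned to 0.26 without APP/PS1 replicate 2 and was also 0.26 in the 4 libraries.

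Rpl3 and Rpl24 each had a low library. Rpl3, a protein next to the site of peptide bond formation, was at 71.9, 52.7 and 65.6 FPKM under WT and at 70.7, 70.1 and 69.4 FPKM under APP/PS1, so WT replicate 2 was the low one. Rpl24, which reaches over to the small subunit, was at 53.9, 40.2 and 55.1 against 56.7, 46.9 and 48.1 FPKM, again lowest in WT replicate 2. The labels overlapped for both. In the same library, 47 of the 77 subunit genes were below their own mean over the 6 libraries and 30 were above. Their median deviation there was -0.014 on the log2(FPKM + 1) scale.

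Among the 40S genes, Rps3a1 and Rps18 had the highest fold changes of the family, Rps3a1 being first on the log2(FPKM + 1) scale and Rps18 by the ratio of means (1.89 against 1.86) and on the log2 scale with a pseudocount of 0.1 (log2 fold changes of 1.01 against 0.95). Rps3a1, which encodes a 40S protein near the mRNA exit, was at 99.6, 48.7 and 51.8 FPKM under WT and at 143.9, 134.2 and 94.6 FPKM under APP/PS1. WT replicate 1 was above APP/PS1 replicate 3, so the labels overlapped, and the means were 66.7 ± 28.5 and 124 ± 26.1 FPKM (SD, n = 3 each). The log2 fold change was 0.94 (SE 0.31, adjusted p = 0.691 by limma), and 0.74 in the 4 libraries (adjusted p = 0.687). Rps18, a protein of the head of the 40S subunit, was at 9.07, 4.40 and 3.13 FPKM under WT and at 8.82, 8.88 and 13.6 FPKM under APP/PS1. WT replicate 1 lay among the APP/PS1-labelled libraries here too, and the log2 fold change was 0.89 (SE 0.35, adjusted p = 0.742 by limma), and 0.70 in the 4 libraries. Rps2, which lies where the mRNA enters the subunit, was at 38.997, 43.5 and 38.4 against 42.4, 63.7 and 56.7 FPKM. APP/PS1 replicates 2 and 3 were above all WT-labelled libraries and APP/PS1 replicate 1 was not, and the log2 fold change was 0.40 (SE 0.14, adjusted p = 0.696 by limma). It was 0.25 in the 4 libraries.

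**Figure D4:**
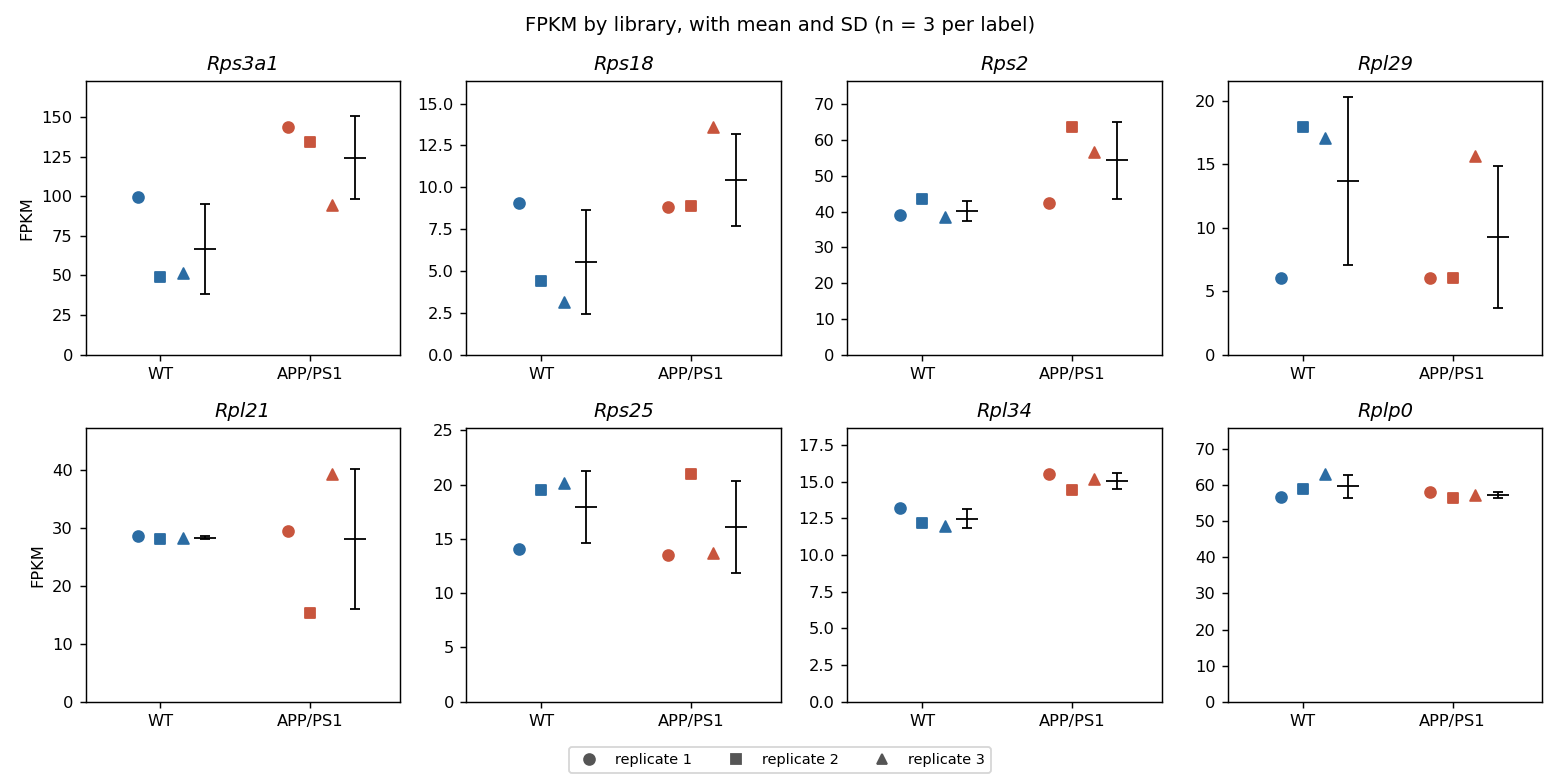
FPKM by library (symbols, linear axes from 0) with mean and SD for n = 3 libraries per label, for the 6 subunit genes with a CV over 20% and for Rpl34 and Rplp0. Rps3a1, Rps18, Rps2, Rpl29, Rpl21 and Rps25 vary between libraries of one label, Rpl34 separates the labels, and Rplp0 varies little.

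Of the 40S genes, Rps3, Rps15a and Rps25 had a low value in replicate 1 of each label. Rps3, which encodes a protein at the mRNA entry that also takes part in DNA repair, was at 14.8, 22.5 and 21.6 FPKM under WT and at 14.8, 18.8 and 18.2 FPKM under APP/PS1. Rps15a was at 9.43, 13.7 and 14.0 against 10.2, 11.8 and 11.6 FPKM. For both, replicate 1 was the lowest of its label and the labels overlapped. Rps25, a 40S protein used by some viral internal ribosome entry sites, was at 14.1, 19.5 and 20.2 against 13.5, 21.0 and 13.7 FPKM, low in both replicates 1 and in APP/PS1 replicate 3. Rps20 did otherwise, at 12.7, 13.6 and 9.68 against 14.0, 9.38 and 9.59 FPKM. None of these 4 had a p under 0.05, and their log2 fold changes ran from -0.16 to -0.12. These 4 genes were chosen after their values were seen.

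Other 40S genes with roles beyond the particle overlapped between labels. Rps6, the protein that S6 kinase phosphorylates downstream of mTOR, was at 78.0, 80.4 and 82.4 FPKM under WT and at 77.1, 77.02 and 79.3 FPKM under APP/PS1, a log2 fold change of -0.045 (SE 0.043). Rpsa, a 40S protein also known as the laminin receptor, was at 50.4, 47.9 and 48.3 against 47.1, 49.0 and 49.8 FPKM, a log2 fold change of -0.0062 (SE 0.046). Rps27a, which is made as a fusion with ubiquitin, was at 33.8, 31.8 and 33.1 against 33.3, 39.1 and 33.5 FPKM, with APP/PS1 replicate 2 highest and a log2 fold change of 0.096 (SE 0.071). Fau, outside the name rule, was at 90.3 ± 1.80 FPKM under WT and at 89.9 ± 3.83 FPKM under APP/PS1 (SD, n = 3 each).

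Summed over the 88 genes, the family took up 3888, 3805 and 3903 FPKM under WT and 4068, 3988 and 3850 FPKM under APP/PS1. The labels overlapped, with means of 3865 ± 52.5 and 3968 ± 110.3 FPKM (SD, n = 3 each) and a ratio of 1.027. This was between 2.08% and 2.20% of all FPKM. Mitochondrially encoded genes took 8.87% to 9.31% of all FPKM under WT and 9.70% to 11.3% under APP/PS1, and as a share of the FPKM of nuclear genes alone the family was at 2.33%, 2.29% and 2.34% against 2.45%, 2.40% and 2.35%. On that base the labels did not overlap, with the lowest APP/PS1-labelled library next to the highest WT-labelled one, and the part of the mitochondrial share in this was not tested. The 60S sum was 2403 ± 53.4 FPKM under WT and 2419 ± 47.6 FPKM under APP/PS1, a difference of 0.648%. The 40S sum was 1392 ± 21.2 against 1478 ± 77.6 FPKM, a difference of 6.16%.

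Most of the 40S difference came from a few genes. Of its 85.8 FPKM, Rps3a1 made up 57.6 FPKM (67.1%) and Rps2 14.0 FPKM (16.3%), and the 27 genes left after removing the 4 genes with a CV over 20% made up 11.1 FPKM (13.0%). The ratio of the 60S sum to the 40S sum was 1.702, 1.687 and 1.790 under WT and 1.630, 1.564 and 1.724 under APP/PS1, with the labels overlapping. The mean ratio was 1.727 ± 0.0557 against 1.639 ± 0.0803, and without the 6 variable genes of both subunits it was 1.872 ± 0.0590 against 1.872 ± 0.0562. These genes were picked by their spread over all 6 libraries, which a difference between labels also raises, so the closeness of these ratios follows in part from the choice and is given as a description. In the 4 libraries the APP/PS1 ratio divided by the WT ratio was 0.989, where all 6 gave 0.949.

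**Figure D5:**
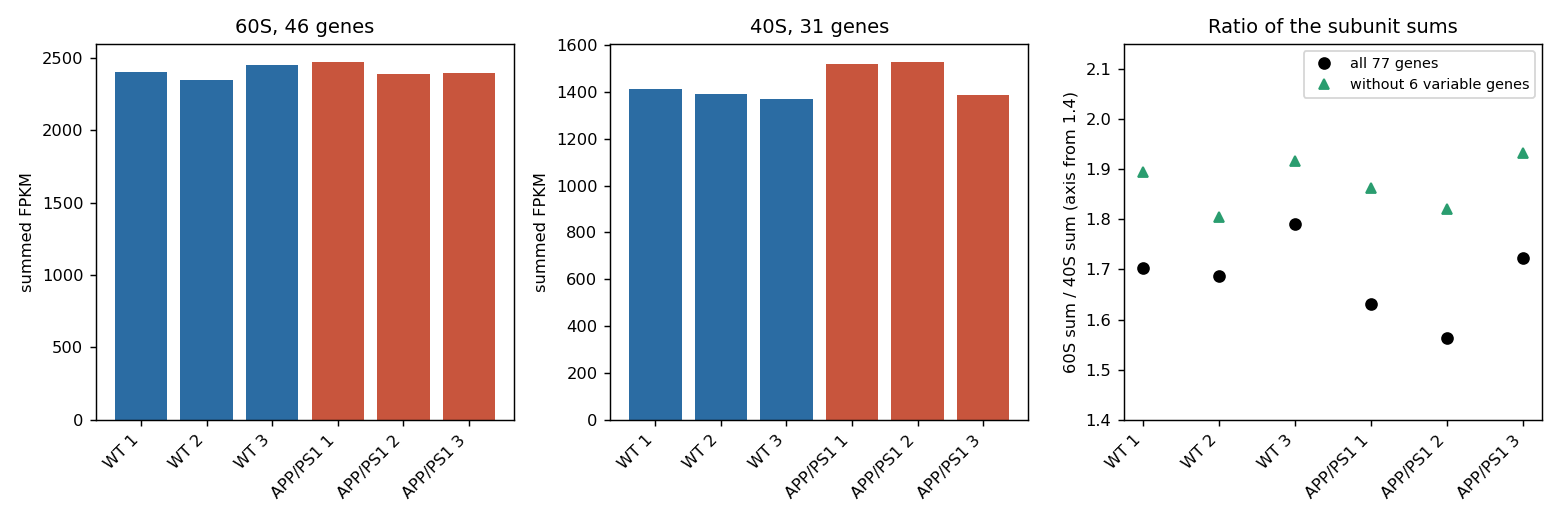
Summed FPKM of the 46 genes for 60S proteins and of the 31 genes for 40S proteins in each library (bars from 0), and the ratio of both sums per library (axis from 1.4) with all 77 genes (circles) and without the 6 genes with a CV over 20% (triangles). The 40S sum is higher in APP/PS1 replicates 1 and 2, and the ratio overlaps between labels in either form.

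Within a library, the 77 subunit genes shifted together by little. The median deviation of a gene from its own mean over the 6 libraries, on the log2(FPKM + 1) scale, was -0.0033, -0.014 and 0.0051 under WT and 0.032, 0.0088 and -0.017 under APP/PS1. In APP/PS1 replicate 1, 55 of the 77 were above their mean and in APP/PS1 replicate 3, 28 were, so the extremes in either direction carried the same label. The 5274 other genes in the same FPKM range had medians from -0.020 to 0.019.

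The paralogs and pseudogene names were low and, apart from a pair, overlapped between labels. Rpl36al, a close relative of Rpl36a, was highest with 15.4 ± 0.790 and 16.4 ± 1.55 FPKM (SD, n = 3 each). Rpl7l1, a factor of 60S assembly related to Rpl7, had 10.2 ± 0.963 and 10.1 ± 0.659 FPKM, and Rpl22l1, the relative of Rpl22, had 6.46 ± 0.798 and 6.98 ± 0.729 FPKM. Rps27l, a p53 target related to Rps27, was at 7.52, 6.55 and 9.31 FPKM under WT and at 7.98, 6.13 and 5.98 FPKM under APP/PS1. Of the 5 paralogs, 2 were above and 3 below 0 in log2 fold change, from -0.22 to 0.099, and 0 had a p under 0.05 by limma. Apart from Rpl36al, each was lower than the subunit gene it resembles, which had means over the 6 libraries of 37.0 FPKM for Rpl7, 15.4 FPKM for Rpl22 and 30.3 FPKM for Rps27. Rpl36a, at 11.98 FPKM, was lower than Rpl36al.

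Rps27 and Rps27rt show how alike such copies can be. Their windows, at chr3:90213629-90213668 and chr9:114982720-114982759 (both minus strand, GRCm38.p6), are printed because reads from shared sequence can be assigned to either gene. Capitals mark the part, within the window, of the longest stretch that both share in the 50 bases from the start, 38 bases in all.
Rps27: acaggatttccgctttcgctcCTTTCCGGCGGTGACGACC
Rps27rt: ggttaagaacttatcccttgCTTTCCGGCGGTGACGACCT
Rps27 was at 30.3, 31.5 and 27.8 FPKM under WT and at 33.0, 30.7 and 28.6 FPKM under APP/PS1. Rps27rt was at 1.33, 0.916 and 1.24 against 0.744, 0.755 and 1.08 FPKM. The labels overlapped for both, and the sources used here do not say how reads matching either copy were divided.

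Among the pseudogene names, 4 of the 5 were tested, and all 4 had a log2 fold change above 0. Rpl36a-ps1 was at 1.41, 1.29 and 1.49 FPKM under WT and at 2.80, 1.78 and 2.06 FPKM under APP/PS1, and Rpl10-ps3 at 7.50, 7.93 and 8.16 against 9.07, 9.49 and 8.41 FPKM. Neither overlapped between labels, with log2 fold changes of 0.41 (SE 0.12, adjusted p = 0.625 by limma) and 0.17 (SE 0.064, adjusted p = 0.704). The parent genes did not show such a split: Rpl36a was at 11.7, 11.9 and 12.3 against 12.4, 11.5 and 12.2 FPKM, and Rpl10 is given above. Rps12-ps3 was at 4.14 to 5.59 against 4.69 to 5.15 FPKM and Rpl27-ps3 at 2.62 to 3.29 against 2.90 to 3.84 FPKM. Rpl9-ps6, below the filter, ranged from 0.0777 to 0.937 FPKM under WT and from 0.275 to 0.587 FPKM under APP/PS1. RefSeq names 319 pseudogene copies for 63 of the 88 genes, and 5 of these copies were in the gene table. Of the 6 variable subunit genes, Rpl21 had 15 copies named after it, Rps2 had 12, Rps18 had 6, Rpl29 had 5, Rps25 had 1 and Rps3a1 had 0. Rpl19 had 12, Rpl31 (CV 2.76%) had 24 and Rps12 (CV 3.89%) had 23. Only names made of the gene name followed by -ps were counted, so copies and relatives under other names are missing from these counts. The part of such copies in the variable values was not tested.

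Genes for the machinery around the ribosome were counted in lists. In these lists 0 genes passed an adjusted p of 0.05 by limma. Of all genes tested, 2.85% were higher and 3.83% lower at an unadjusted p under 0.05. The counts per list were not tested against these shares, and the genes named below are a description. Of 78 mitochondrial ribosomal protein genes, which serve the separate ribosome of the mitochondrion, 1 was higher and 3 were lower at an unadjusted p under 0.05, and the median log2 fold change was -0.0089. Their median level was 7.15 FPKM and their median CV 8.44%. The higher gene, Mrpl58, a peptidyl-tRNA hydrolase built into that ribosome, was at 2.81, 4.12 and 3.61 against 5.77, 4.55 and 5.71 FPKM. The lower genes were Mrpl22 with a log2 fold change of -0.26, Mrpl53 with -0.38 and Mrps27 with -0.20, all proteins of the mitochondrial ribosome. Of 41 initiation factor genes, 1 was higher and 1 lower. The higher gene, Eif3j2, which encodes a subunit of initiation factor eIF3, was listed at 0 in WT replicates 1 and 2 and at 2.80 FPKM in WT replicate 3, against 4.37, 2.71 and 2.62 FPKM under APP/PS1, so the labels overlapped. The lower gene, Eif5, which triggers GTP hydrolysis when the start codon is found, had 15.8 ± 3.06 and 11.0 ± 0.610 FPKM (SD, n = 3 each), with a log2 fold change of -0.48 (adjusted p = 0.611 by limma). Of 50 genes for ribosome biogenesis, 1 was higher and 0 lower: Polr1a, the large subunit of RNA polymerase I, at 3.70, 3.47 and 3.53 against 4.01, 4.41 and 4.002 FPKM. Elongation factors (10 genes), hosts of small nucleolar RNAs (10) and 7 other ribosome-associated proteins had 0 in either direction. Of 20 genes for TOP mRNA control and mTOR signalling, 0 were higher and 1 lower. That gene, Ddit4, an inhibitor of mTOR complex 1 induced by stress, was at 21.6, 24.5 and 24.9 FPKM under WT and at 14.0, 20.6 and 14.1 FPKM under APP/PS1, with no overlap and an adjusted p of 0.611 by limma. Genes without overlap between labels were counted as well, first higher and then lower under APP/PS1. They were 2 and 8 of the 78 mitochondrial ribosomal protein genes and 2 and 5 of the 50 biogenesis genes. For TOP mRNA control and mTOR they were 1 and 2 of 20, and for initiation factors 0 and 1 of 41. The other lists had 0. Of all genes tested, 5.37% and 6.52% did not overlap in these directions.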

How the data were processed

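Total RNA of 6 hippocampal libraries was analysed from the gene values deposited by the authors, read as FPKM from their decimals, their totals and StringTie in the submitters' processing notes, which also list FastQC, HISAT2 and mm9 without versions or roles. Low values showed no whole-read steps, so no count test was run and the precision from depth is unknown. The sources used here do not say how reads with several matches were counted. Of entries sharing a name the highest was kept.

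A gene entered the test if 3 or more libraries reached 1 FPKM (13690 genes). The test was limma 3.58.1 (R 4.3.3, empirical Bayes with trend and robust settings) on log2(FPKM + 1), comparing the labels with no further term and with Benjamini-Hochberg adjustment over all of them. Fold changes on that scale understate the change of low genes. In a simulation of 13522 genes with independent normal noise, shifts were added on that same scale, and to no low genes. The test recovered 67% of 1.5-fold and 95% of 2-fold shifts on that scale, with 3 false calls. Libraries that go against their label were not simulated, and changes in low genes were not covered. Sums, levels and motifs were computed with Python 3.11.15 and pandas 2.3.3 and were not tested.

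The members and lists were chosen with earlier results of these data known. Named were members with an unadjusted p under 0.05 or no overlap between labels, the 5 highest and 5 lowest, the 3 most variable at 10 FPKM or more, genes of known role, paralogs and pseudogene names; Rpl19, Rpl4, Rps24, Rpl3, Rpl24, Rpl23, Rpl31 and 4 variable 40S genes were added after their values were seen. Alternatives were other filters, a pseudocount of 0.1, other scalings, limma without trend or with array weights, the replicate number as a block, summed entries and each library left out, and, chosen after seeing the data, the 4 libraries. circRNA files were not used. The planned relation of level to protein length was not run, since no protein table was at hand.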

Additional observations from a re-analysis of the deposited data

How the results depend on the processing

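No member passed the threshold under any of 16 alternatives by limma, and 2 to 7 had an unadjusted p under 0.05. The median log2 fold change of the family ran from -0.011 to 0.020 and its summed ratio from 1.01 to 1.04. Alternatives were run for 10 named genes, those with an unadjusted p under 0.05 or no overlap and Rpl29 and Rpl21. Of these, Rpl21 turned: -0.11 over all libraries, between -0.39 and 0.26 with each library left out, 0.26 without APP/PS1 replicate 2, and 0.26 in the 4 libraries. The other 9 kept their direction. The ratio of the 60S to the 40S sum, 0.949, moved to 0.989 in the 4 libraries and ran from 0.925 to 0.971 with each library left out; the cause was not tested. Rpl36a-ps1 did not pass a filter at 5 FPKM. Same-numbered libraries did not deviate together across all genes tested (r = 0.0097, -0.056 and -0.094). This correlation cannot show a pairing that acts on part of the genes. With the replicate block 0 members passed by limma, the median stayed at 0.0044 and the smallest adjusted p was 0.721. The depth behind the values is unknown.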
